A study of Mus musculus with 1037 samples.

Results

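Transglutaminases join proteins through a bond between a glutamine and a lysine residue. The transcripts of 4 of them, *Tgm1*, *Tgm2*, *Tgm3* and *Tgm5*, were followed through single cells of the mouse hair follicle in late anagen (AnaVI) and in 2 stages of catagen (CatVI and CatVII). The genes were found by their Ensembl identifiers among the 55335 genes of the count table. *Tgm5* had been picked because its summed level in catagen exceeded that in AnaVI in these same libraries, so that every catagen to anagen value of the 4 genes is a description and not a test.

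Single wild-type cells, labelled as hair follicle epithelial cells of the skin, were sorted into wells and profiled by Smart-seq2, which makes full-length cDNA from 1 cell and carries no molecular identifiers. AnaVI cells came as a lower outer root sheath (ORS) sort, LOS, and as a pair of sorts, MOS and UOS, that share the label upper-middle ORS. The CatVI cells are labelled upper ORS and came in 6 plates whose titles name phagocytic (Phago) or non-phagocytic (NonPhago) stem cells that were alive or apoptotic (apop). The CatVII cells, also upper ORS, came as the sorts OSalive and OSapop. What MOS, UOS and the CatVI prefix P17f stand for is not spelled out in the labels, and the stage is given by hair cycle and not by age. Per the study's methods, Sca1-positive cells and cells with lineage markers of blood, vessel, fibroblast and melanocyte were gated away, CD34+ Itga6+ cells were kept, and annexin V separated alive from apoptotic cells. Cells of several animals were pooled before sorting, so each sort or plate is 1 sample and no test was made between them. The stage of the cells, their sort and their library preparation cannot be told apart.

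Of 1036 cells with counts, 463 of known group had 2000 or more detected genes and were used. They comprised 39 LOS cells, 150 cells of the AnaVI upper-middle ORS, of which 38 were MOS and the rest UOS, 57 CatVI cells, and CatVII cells, of which 92 were OSapop and the rest OSalive. In CatVI, plate 1 (Phago alive) gave 19 cells, plate 2 (Phago alive) 9, plate 5 (Phago apop) 15 and plate 6 (NonPhago apop) 14, whereas 0 of 67 cells of plate 3 and 0 of 57 of plate 4 (NonPhago alive) reached 2000 genes, which allows shares of up to 4.48% and 5.26%. Total counts ran from 1840012 in plate 6 to 287377663 in OSalive, and the median cell from 90483 to 2182588 counts. A single gene took 56.3% to 66.5% of each total. All 11 genes of the ORS and stem cell list, *Krt5*, *Krt14* and *Sox9* among them, had counts in every group, with a summed level of 1320 to 6921 CPM. Counts in a pooled sum do not show that each cell fits the label. In LOS the ORS list summed to 1556 CPM and a list of fibroblast genes to 1405 CPM, with *Krt5* at 547 CPM and *Col3a1* at 676 CPM. A list of melanocyte genes was also at its highest in LOS, at 181.96 CPM. CPM is counts per 1000000 counts of all genes, with the spike-in RNAs left out. *Cd34*, the gene of a gate marker, was at 1.46 to 9.71 CPM in the CatVI plates and at 21.5 CPM or more in the other groups. Ranges in brackets are 95% intervals of counting error alone, exact Poisson for CPM, exact Clopper-Pearson for shares of cells and an exact binomial split for ratios. Because 1 molecule can give many reads here and many reads fell in few cells, the intervals say nothing of the spread among cells or animals.

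All 4 enzymes share a catalytic core in which a cysteine attacks the glutamine of one protein and hands it to the lysine of another, with calcium as the switch. TGM1, TGM3 and TGM5 are the epidermal members, which stitch involucrin, trichohyalin and other proteins into the cornified envelope of skin and into the inner root sheath and shaft of the hair. TGM2, or tissue transglutaminase, is found in many cell types, acts on matrix proteins such as fibronectin, also binds guanine nucleotides, and its gene is a known target of retinoic acid.

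The stretch of coding sequence around the catalytic cysteine shows how close the members are to one another. It is printed 5′ to 3′ on the coding strand of the GRCm39 reference, which is the build of the counts (mm39), with the cysteine codon in capitals.
Tgm1: tacggccaaTGCtgggtctttgcc
Tgm2: tacgggcagTGCtgggtgtttgca
Tgm3: tttggccagTGCtgggtctttgct
Tgm5: tatgggcaaTGCtgggtctttgct
Tgm7: tatggacagTGTtgggtctttgct
*Tgm7*, the gene next to *Tgm5*, is shown for comparison. Between any pair of the 4 members, 19 to 21 of the 24 bases are the same, with 21 shared by *Tgm5* and *Tgm1*, by *Tgm5* and *Tgm3* and by *Tgm5* and *Tgm7*. In the canonical transcripts the stretch lies in exon 7 of 15 of *Tgm1* (chr14:55946867-55946890, minus strand), in exon 6 of 13 of *Tgm2* (chr2:157973267-157973290, minus) and in exon 6 of 13 of *Tgm3* (chr2:129871683-129871706, plus). In *Tgm5* it lies in exon 6 of 13 (chr2:120901229-120901252, minus) and in *Tgm7* in exon 6 of 13 (chr2:120934324-120934347, minus). Despite this likeness, no run of 75 bases, the length of a read, is shared between the transcripts of a member and those of another family gene. *Tgm5* and *Tgm3* share no such run with any gene. Of the runs of *Tgm1*, some are shared with the annotated gene *Gm49067*, and *Tgm2* shares 786 of 5286 with *Gm20412* and *Rprd1b*, so the counts of these members are uncertain to that extent.

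*Tgm5* (ENSMUSG00000053675.8) spans chr2:120876592-120916322 on the minus strand. Its product crosslinks envelope proteins in the outer epidermis, and loss of the human enzyme causes a peeling of the skin. In AnaVI it was at 0.0933 CPM in LOS from 1 count, at 1.17 CPM (0.561 to 2.15) in MOS from 10 counts and at 3.72 CPM (3.27 to 4.20) in UOS. In CatVI it was at 20.97 CPM (17.3 to 25.2) in plate 1, 2.21 CPM (0.717 to 5.15) in plate 2, 11.3 CPM (8.45 to 14.9) in plate 5 and 1.63 CPM (0.336 to 4.76) in plate 6. In CatVII it was at 76.2 CPM (75.2 to 77.2) in OSalive from 21887 counts and at 49.8 CPM (48.2 to 51.4) in OSapop from 3638 counts. Both CatVII sorts stood above each other group, and CatVI was divided: plates 1 and 5 lay above UOS, while the intervals of plates 2 and 6 overlapped those of UOS and MOS.

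**Figure D1:**
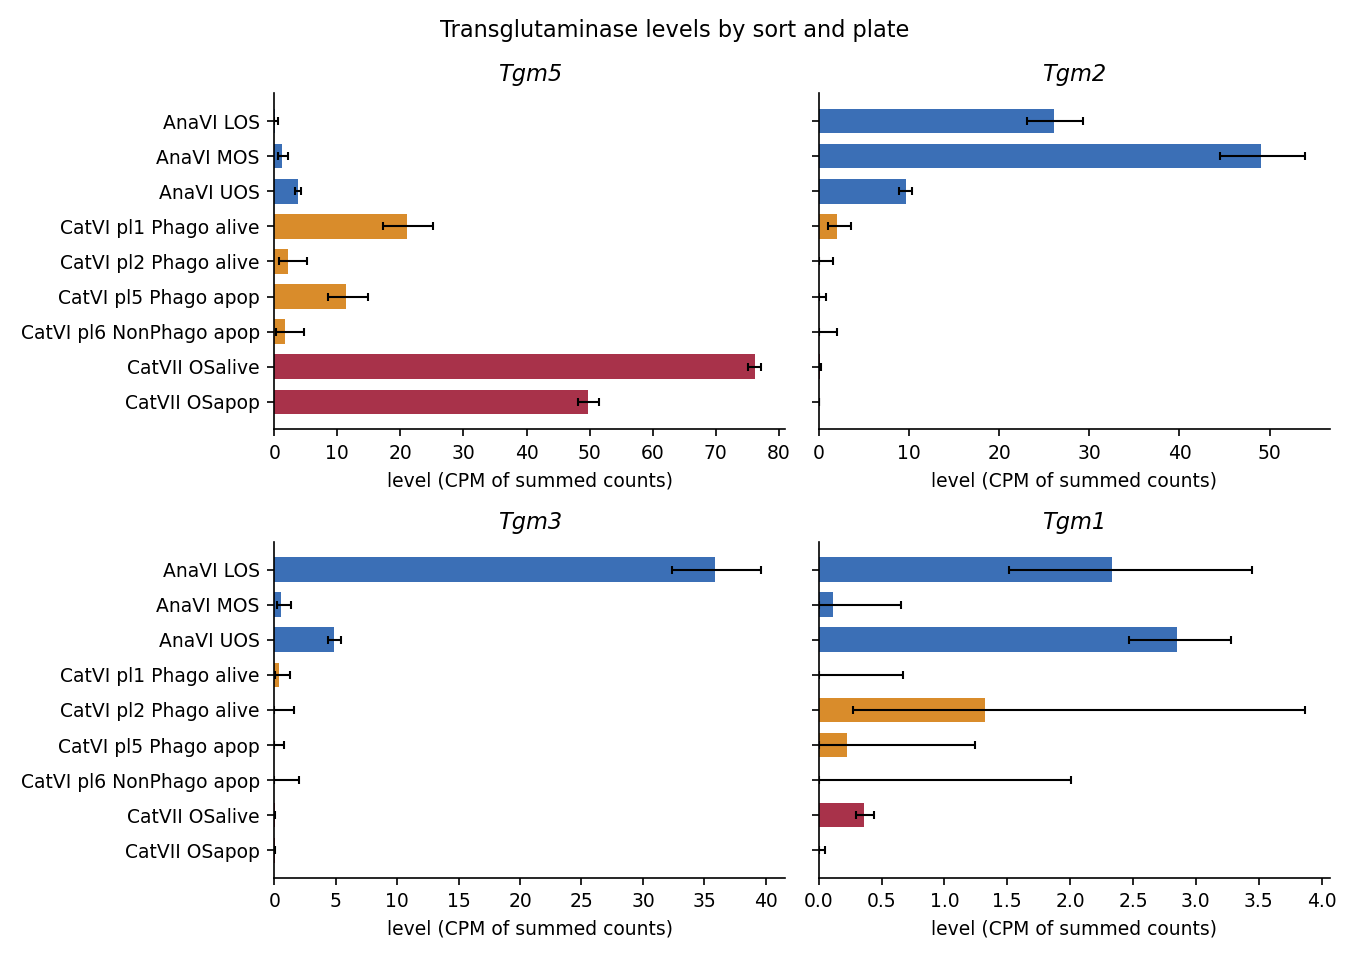
Level of *Tgm5*, *Tgm2*, *Tgm3* and *Tgm1* in each sort or plate with passing cells, in CPM of summed counts, with a separate linear axis for each gene. Bars are blue for AnaVI, orange for CatVI and red for CatVII, and black lines are 95% Poisson intervals of counting error. *Tgm5* has its tallest bars in CatVII (76.2 and 49.8 CPM), whereas *Tgm2* and *Tgm3* have theirs in AnaVI (49.04 CPM in MOS and 35.8 CPM in LOS).

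Set against the AnaVI upper-middle ORS as a whole, at 3.43 CPM (3.03 to 3.87), *Tgm5* in CatVII was at 70.8 CPM (69.95 to 71.7). This is a log2 ratio of 4.37 (4.19 to 4.55), or 20.6-fold. The CatVI plates together were at 12.4 CPM (10.6 to 14.3), a log2 ratio of 1.85 (1.56 to 2.13). Among genes with 100 or more counts over both groups, 11.5% were 2-fold or more higher in CatVII and 24.1% were 2-fold or more lower, and the median gene stood at a log2 ratio of -0.27. Because *Tgm5* was chosen from this contrast, nothing is read from its place there. Leaving out UOS, so that the 38 MOS cells alone stood for AnaVI, gave a log2 ratio of 5.92 in CatVII. OSalive against UOS alone, an alternative added after seeing the data, gave 4.36.

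The CatVI value rested on few cells and mostly on plate 1. Counts of *Tgm5* were found in 4 of 19 cells of plate 1, 1 of 9 in plate 2, 3 of 15 in plate 5 and 2 of 14 in plate 6. The top cell held 53.04% of the counts of plate 1 and 64.7% of those of plate 5. Without plate 1, the log2 ratio of CatVI to AnaVI was 0.999, just inside 2-fold.

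The share of cells with a *Tgm5* count was also highest in the CatVII sorts. The other groups did not all keep their order, as plate 6 had a share of 14.3%, above UOS. The share was 2.56% in LOS, 7.89% in MOS and 11.6% (6.33% to 19.03%) in UOS. In CatVI it was 17.5% (8.75% to 29.9%), from 10 of 57 cells. In CatVII it was 77.6% (69.3% to 84.6%) in OSalive and 60.9% (50.1% to 70.9%) in OSapop. Deeper cells show a gene more readily, and the median OSalive cell held 2182588 counts against 471277 in UOS. With each cell thinned to 50000 counts, which left out 1 OSalive, 7 OSapop, 1 UOS, 6 MOS and 16 LOS cells, the share was 59.7% (50.5% to 68.4%) in OSalive, 55.3% (44.1% to 66.1%) in OSapop and 7.21% (3.16% to 13.7%) in UOS. At that depth CatVI, with 4 cells left out, had a share of 15.1% (6.75% to 27.6%). Thinned to 20000 counts, the share was 44% in OSalive, 41.8% in OSapop, 7.14% in UOS and 7.02% in CatVI. At both depths the CatVII sorts overlapped and remained apart from UOS, whereas CatVI overlapped UOS. In LOS, 0 of 23 cells had a count at 50000 counts, which allows a share of up to 13.04%.

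**Figure D2:**
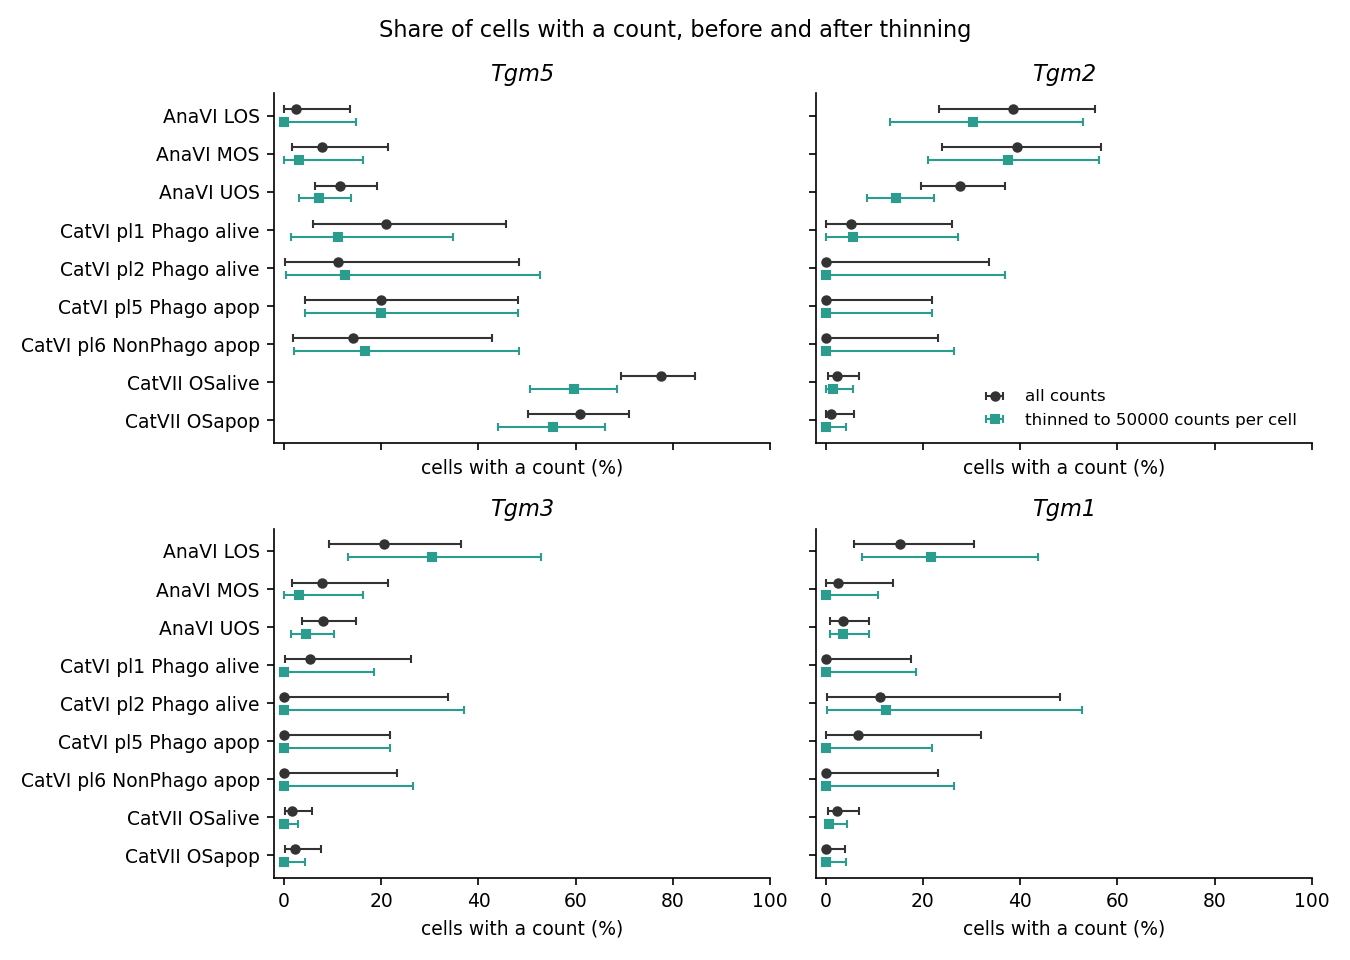
Share of cells with at least 1 count of each gene, in percent, by sort or plate. Circles use all counts and squares each cell thinned to 50000 counts, with 95% Clopper-Pearson intervals. The CatVII squares for *Tgm5* sit at 59.7% and 55.3%, against 7.21% in UOS, and the *Tgm2* squares at 37.5% in MOS and 30.4% in LOS against 1.61% in OSalive.

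Within CatVII the *Tgm5* counts were spread over many cells. The median OSalive cell had 31.2 CPM and the highest 374 CPM, and the top cell held 6.20% of the counts of the sort. In OSapop the median cell had 26.4 CPM, the highest 389 CPM and the top cell 9.79% of the counts. By contrast, the median cell had no count in any AnaVI sort or CatVI plate. The few AnaVI cells with counts reached levels inside the CatVII range, with a median of 33.8 CPM over 16 cells and a highest of 146.02 CPM, and the 10 CatVI cells had a median of 34.3 CPM and a highest of 288.7 CPM. The groups thus differed more in how many cells carried *Tgm5* than in the level of those cells, which in CatVII had a median of 65.1 CPM. Depth sets how low a level can be seen in a cell, and these medians were not corrected for it.

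**Figure D3:**
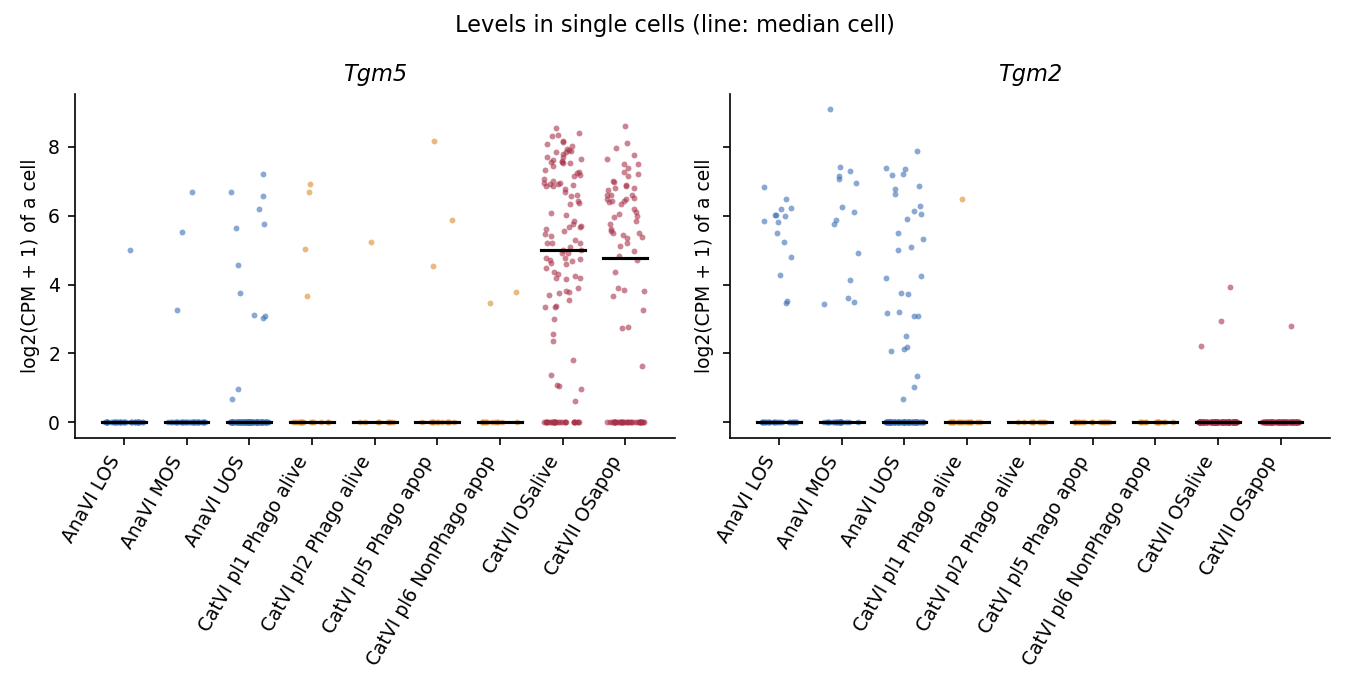
Level of *Tgm5* (left) and *Tgm2* (right) in each passing cell, as log2(CPM + 1), by sort or plate. Each point is a cell and the black line the median cell. The median of *Tgm5* is above 0 in OSalive and OSapop, with 31.2 and 26.4 CPM, and at 0 in the other groups. The median of *Tgm2* is at 0 in each group.

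The sort label within CatVII was not used to choose *Tgm5*. Counts of OSapop against OSalive gave a log2 ratio of -0.61 (-0.66 to -0.56), a level 1.53-fold higher in OSalive. In this comparison 10.6% of genes were 2-fold or more higher in OSapop and 11.3% were 2-fold or more lower. Of the 2 members with 100 or more counts over both sorts, *Tgm5* was within 2-fold and *Tgm1* past it. After thinning, the *Tgm5* ratio was -0.11, and as a mean over cells it was -0.50. Thinned to 20000 counts, the levels were 75.6 CPM in OSalive and 54.9 CPM in OSapop. Under the settings tried the level was lower in OSapop, by an amount that differed between the 2 depths.

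The CatVI plates gave no such order. Between plate 5 (Phago apop) and plates 1 and 2 (Phago alive) together, *Tgm5* had a log2 ratio of -0.45 (-0.95 to 0.04), from 51 and 120 counts. Past 2-fold stood 10.8% of genes on the higher side and 22% on the lower, and the other 3 members were short of 100 counts. Leaving out plate 1 turned the ratio to 2.36, thinning to 2.07, and weighting cells equally to 1.19. Plates 1 and 2, which share a label, stood on either side of plate 5. Plate 2, of 9 cells, also stood apart in its markers, with the lowest ORS sum (1320 CPM), 175.3 CPM of the melanocyte list against 2.01 CPM in plate 1, and 336.04 CPM of the upper follicle and epidermis list, of which *Krt79* made 232.7 CPM. The part of such cells in its *Tgm5* level was not tested. Plate 5 against plate 6 (NonPhago apop) gave 51 against 3 counts and a log2 ratio of 2.80 (1.17 to 5.12), in a comparison where 22.9% of genes were 2-fold or more higher and 7.65% were 2-fold or more lower, and no member reached 100 counts.

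*Tgm2* (ENSMUSG00000037820.15, chr2:157958322-157988359, minus strand) ran the other way. It was at 26.03 CPM (23.1 to 29.3) in LOS, 49.04 CPM (44.5 to 53.97) in MOS and 9.63 CPM (8.91 to 10.4) in UOS. In CatVI it was at 2.01 CPM (1.001 to 3.59) in plate 1, from 11 counts in 1 cell, and at 0 counts in plates 2, 5 and 6. In CatVII it was at 0.174 CPM (0.129 to 0.229) in OSalive, from 50 counts in 3 cells, and at 0.0137 CPM in OSapop, from 1 count. The 3 AnaVI sorts stood above each catagen group, and MOS above LOS and LOS above UOS beyond their intervals of counting error. One LOS cell held 64.9% of the LOS counts, and LOS without it was at 12.5 CPM. Thinned to 50000 counts, the levels were 28.1 CPM in MOS, 18.3 CPM in LOS, from 21 counts, and 14.2 CPM in UOS. The order was the same, but LOS lay closer to UOS.

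Against the AnaVI upper-middle ORS, at 14.01 CPM (13.2 to 14.9), *Tgm2* had a log2 ratio of -6.63 (-7.06 to -6.22) in CatVII. In CatVI the ratio was -4.16 (-5.17 to -3.32), in a comparison where 24.4% of genes were 2-fold or more lower and 13.1% were 2-fold or more higher. All 16 settings tried for CatVII left it at -5.79 or below. Over cells, 46 of 150 in the AnaVI upper-middle ORS (30.7%, 23.4% to 38.7%) had a *Tgm2* count, against 1 of 57 in CatVI (1.75%, 0.0444% to 9.39%) and 4 cells in CatVII (1.84%, 0.505% to 4.65%). Thinned to 50000 counts, the shares were 37.5% in MOS, 30.4% in LOS, 14.4% in UOS and 0.957% (0.116% to 3.41%) in CatVII. The median cell held 148140 counts in MOS, 471277 in UOS, 90483 to 299387 in the CatVI plates and 482288 or more in CatVII, and the part of depth in these shares was not tested.

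Stromal cells also express *Tgm2*, and their markers were compared by sort. The fibroblast list (6 genes, *Col1a1* and *Col3a1* among them) summed to 1405 CPM in LOS, 353 CPM in UOS and 14.7 CPM in MOS, and to 188.7 and 186.5 CPM in OSalive and OSapop. The endothelial list (5 genes) summed to 103.1 CPM in LOS, 14.3 CPM in UOS and 0.936 CPM in MOS, with *Pecam1*, *Kdr* and *Egfl7* at 0 counts in MOS. In CatVI plate 1, the CatVI plate with *Tgm2* counts, it summed to 78.6 CPM, with *Pecam1* at 33.9 CPM, and in the other CatVI plates to 1.09 CPM or less. MOS, where *Tgm2* was highest, held the lowest sums of both lists within AnaVI, with *Col3a1*, *Pdgfra* and *Lum* at 0 counts. LOS held the highest sums of the 9 groups. The part of stromal cells in the *Tgm2* level of MOS, LOS, plate 1 or any other group was not tested.

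*Tgm3* (ENSMUSG00000027401.9, chr2:129854257-129892319, plus strand), whose product acts on trichohyalin in the inner root sheath, was at 35.8 CPM (32.3 to 39.6) in LOS. It was at 0.585 CPM (0.190 to 1.37) in MOS and at 4.89 CPM (4.38 to 5.44) in UOS. Catagen cells had next to none, with 2 counts in plate 1, none in plates 2, 5 and 6, 7 counts in OSalive and 2 in OSapop. Relative to the AnaVI upper-middle ORS, the log2 ratio was -7.46 (-8.61 to -6.52) in CatVII. In CatVI it was -4.96 (-8.01 to -3.09), from 2 counts. Leaving out UOS moved these to -4.55 and -2.04, and weighting cells equally to -4.36 and -3.52. Thinned to 50000 counts, CatVII and CatVI had 0 counts of *Tgm3*, against 13 in the AnaVI upper-middle ORS. With catagen set to a floor of 3 counts the ratios were -2.66 and -0.68, the last inside 2-fold. Both are bounds and not measured sizes. *Tgm3* was lower in catagen under each of these, by a size that depended on the setting. A single LOS cell held 74.2% of the LOS counts, and LOS without it was at 9.80 CPM, still above UOS. Counts were in 8 of 39 LOS cells (20.5%, 9.30% to 36.5%), 9 UOS cells (8.04%, 3.74% to 14.7%) and 3 of 38 MOS cells.

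*Tgm1* (ENSMUSG00000022218.16, chr14:55937466-55951383, minus strand) encodes the membrane-bound keratinocyte enzyme. It was at 2.33 CPM (1.51 to 3.44) in LOS, 0.117 CPM in MOS from 1 count, and 2.85 CPM (2.47 to 3.28) in UOS. In catagen it was at 0.362 CPM (0.296 to 0.438) in OSalive, from 3 cells, with 3 counts in plate 2, 1 in plate 5 and 0 in plates 1 and 6 and in OSapop. Relative to the AnaVI upper-middle ORS, its log2 ratio was -3.14 (-3.50 to -2.79) in CatVII and -3.17 (-5.06 to -1.79) in CatVI. One UOS cell held 75.4% of the UOS counts, and without it UOS was at 0.725 CPM. With UOS left out, 1 MOS count stood for AnaVI and both ratios changed sign, to 1.30 and 1.28. OSapop, at 0 counts, was 8.81-fold lower than OSalive when set to a floor of 3 counts. The interval of the log2 ratio reached up to -2.82, and without the top cell of each sort the ratio was -1.97. *Tgm1* is thus a gene of a few cells in each group, and its direction between stages depends on 1 sort.

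**Figure D4:**
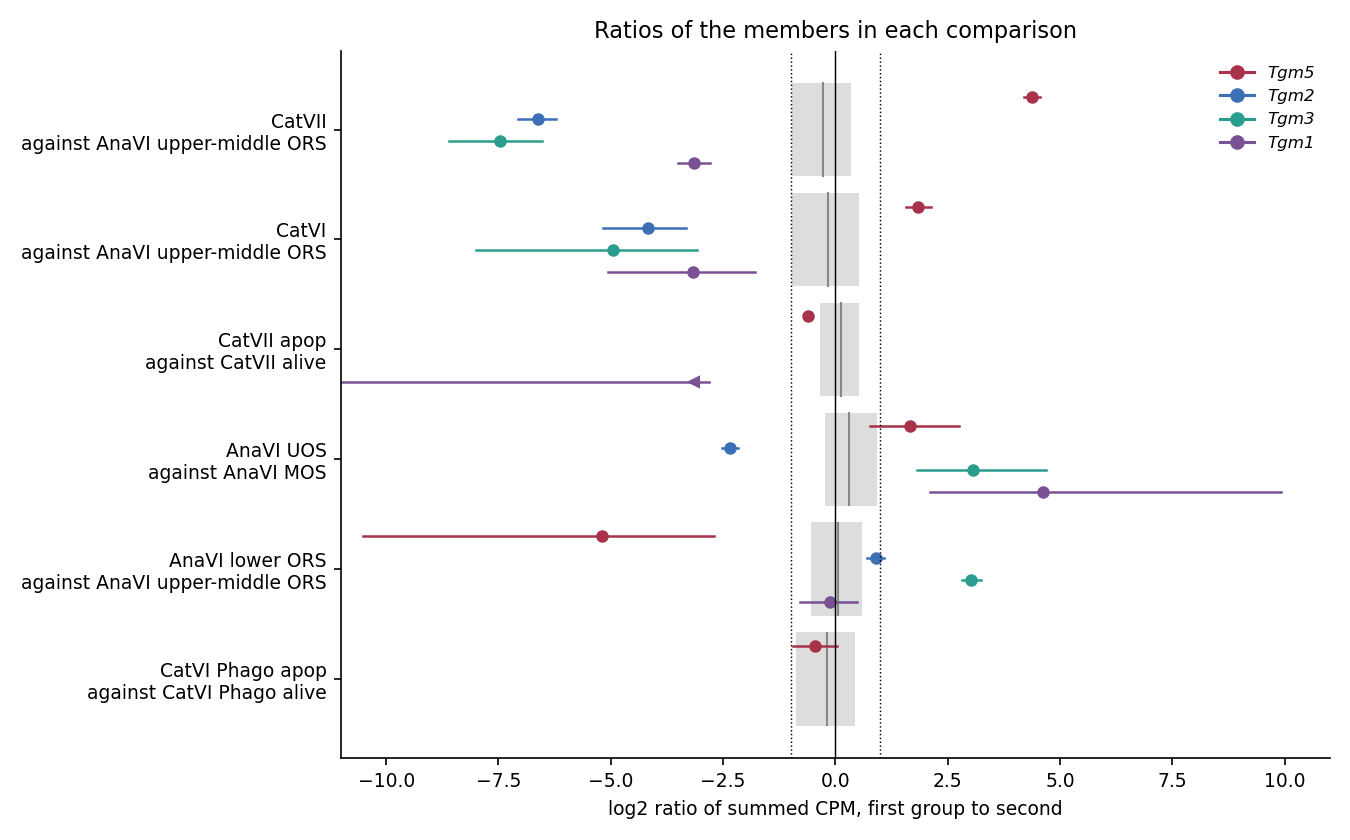
Log2 ratio of summed CPM of each member in each comparison, first group to second, with 95% intervals of counting error, for members with 100 or more counts over both groups. Grey boxes span the middle 50% of all genes in that comparison with their median as a line, dotted lines mark 2-fold, and the triangle is a bound against 0 counts. *Tgm5* sits right of its box in both catagen comparisons (4.37 and 1.85) while *Tgm2*, *Tgm3* and *Tgm1* sit left of it.

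Where in the anagen sheath the members lay differed among them. Between UOS and MOS, which share a region label, *Tgm2* had a log2 ratio of -2.35 (-2.53 to -2.17), 5.09-fold higher in MOS. *Tgm3* at 3.06 (1.83 to 4.69), *Tgm1* at 4.61 (2.11 to 9.92) and *Tgm5* at 1.67 (0.76 to 2.74) were higher in UOS. In this comparison 23.2% of all genes were 2-fold or more higher in UOS and 6.56% were 2-fold or more lower, so the direction of *Tgm2* was the less common. With cells weighted equally, *Tgm3* came to 0.04 and *Tgm5* to 0.33, and MOS held only 5, 1 and 10 counts of *Tgm3*, *Tgm1* and *Tgm5*. Thinned to 50000 counts, *Tgm2* came to -0.98, just inside 2-fold. The top MOS cell held 30.1% of the *Tgm2* counts of MOS.

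Between LOS and the upper-middle ORS, *Tgm3* had a log2 ratio of 3.02 (2.81 to 3.24), 8.13-fold higher in LOS. *Tgm5* stood at -5.20 (-10.51 to -2.71), from 1 count in LOS. Both were past 2-fold, where 14.2% of genes were 2-fold or more higher and 14% were 2-fold or more lower. *Tgm2* at 0.89 (0.70 to 1.09) and *Tgm1* at -0.13 (-0.79 to 0.48) were within it, but *Tgm2* turned to -0.91 against MOS alone, and *Tgm1* came to 2.83 with cells thinned to 50000 counts and to 4.32 against MOS alone. *Tgm5* in LOS rested on 1 count. It was lost at 50000 counts, where 16 LOS cells were left out, and kept at 20000, with 1.39 CPM in LOS and 4.33 CPM in the upper-middle ORS.

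Within AnaVI, markers of differentiated hair layers were higher in the sorts with more *Tgm3* and *Tgm1* by summed counts. The inner root sheath and companion layer list (10 genes) summed to 1026 CPM in UOS, 564 CPM in LOS and 74.4 CPM in MOS, with *Krt27* and *Krt73* at 0 counts in MOS. In catagen, where *Tgm3* was near 0, the same list summed to 150.1 to 617.6 CPM in the CatVI plates and to 183.6 and 241.1 CPM in CatVII, with *Krt6a* at 581 CPM in plate 5 and *Krt75* at 108.2 CPM in plate 2. *Krt71*, an inner root sheath keratin, was at 432 CPM in UOS, 56.5 CPM in LOS and 3.86 CPM in MOS, at 0 to 17.4 CPM in the CatVI plates, and at 0.174 and 0.452 CPM in OSalive and OSapop. The hair shaft and matrix list (8 genes) summed to 129.7 CPM in LOS, 40.6 CPM in UOS and 11.9 CPM in MOS. In catagen it summed to 22.02 to 49.5 CPM, most of it *Msx2*, *Hoxc13* and *Lef1*, and *Krt85* had no count there. *Tchh*, which encodes the trichohyalin that TGM3 crosslinks, was highest in LOS, with 112.7 CPM in UOS and 3.04 CPM in MOS, and was at 0.890 to 2.29 CPM in catagen. By summed counts, LOS and UOS thus held both the enzymes and this substrate, and MOS and catagen less of either. With cells weighted equally, however, *Tgm3* was at 1.93 CPM in UOS and 1.87 CPM in MOS. For *Tgm1*, 1 cell held 75.4% of the UOS counts, and plate 2 was at 1.32 CPM from 3 counts. The part of cells of the differentiated layers in the *Tgm3* and *Tgm1* values was not tested.

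How often members shared a cell differed by pair. Among the 150 AnaVI upper-middle cells, 46 had a *Tgm2* count and 16 a *Tgm5* count, and 1 cell had both. In LOS, 5 of the 8 cells with *Tgm3* also had *Tgm1*, 3 of the 8 had *Tgm2*, and no cell with *Tgm1* had *Tgm2*. In the AnaVI upper-middle ORS, 4 of the 5 cells with *Tgm1* also had *Tgm3*. In CatVII, 61 cells had none of the members, 8 had 2 and the rest had 1. There, all 4 cells with *Tgm3*, 3 of the 4 with *Tgm2* and 1 of the 3 with *Tgm1* had *Tgm5*. These are counts of cells, uncorrected for depth.

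Levels of different genes were compared per kilobase of canonical transcript. In LOS, *Tgm3* at 8.64 CPM per kb and *Tgm2* at 7.23 led *Tgm1* at 0.846 and *Tgm5* at 0.0357. In MOS, *Tgm2* at 13.6 CPM per kb led *Tgm5* at 0.448. In UOS, *Tgm2* was at 2.68, *Tgm5* at 1.42, *Tgm3* at 1.18 and *Tgm1* at 1.04 CPM per kb, a narrower range than in the other sorts. In CatVII, *Tgm5* was at 27.1 CPM per kb, with *Tgm1* at 0.105, *Tgm2* at 0.0393 and *Tgm3* at 0.00602. Of the 4 members, the highest per kilobase was therefore *Tgm3* in LOS, *Tgm2* in MOS and UOS, and *Tgm5* in CatVII. In LOS the order of *Tgm3* and *Tgm2* rested on single cells, which held 74.2% and 64.9% of their counts. Without these cells LOS was at 9.80 CPM of *Tgm3* and 12.5 CPM of *Tgm2*.

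The other genes of the family were low or came from few cells. *Tgm6*, which lies on the same chromosome as *Tgm3*, was at 35.2 CPM (31.7 to 38.9) in LOS, or 10.6 CPM per kb, from 377 counts in 4 cells, all of them among the 8 cells with *Tgm3*, and had 1 count in CatVII. *F13a1*, the catalytic chain of coagulation factor XIII, had 82 counts in LOS and 3085 in CatVII, of which 92.97% were in 1 cell. *Tgm4*, the prostate enzyme, stayed at 1.05 CPM or below in each group. Of the 9 family genes, *Tgm5* was the only one with counts in over 100 of the 463 cells, at 180, followed by *Tgm2* at 66.

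*Tgm5* sits between 2 relatives on chromosome 2. *Epb42*, the red cell band 4.2 protein, which lacks the printed cysteine motif, ends 9038 bases before it in coordinate order, and *Tgm7* starts 7723 bases after it. *Tgm7* had no count in the AnaVI cells and 312 counts in 11 CatVII cells (0.866 CPM), of which 8 also had *Tgm5*. With the upper-middle ORS set to a floor of 3 counts it was 22.2-fold higher in CatVII, and the interval of the log2 ratio began at 4.16. *Epb42* had 1 count in the AnaVI upper-middle ORS and was found in 9 CatVII cells (0.449 CPM), each of which also had *Tgm5*. Of all CatVII cells, 70.5% had *Tgm5*. Further out, *Ccndbp1* was at 7.06 CPM in late anagen and 11.1 CPM in CatVII, *Tmem62* at 1.001 and 1.38, *Lcmt2* at 5.02 and 3.69, and *Adal* at 6.52 and 2.84. By summed counts, the 2 flanking family genes were thus higher in CatVII, far below the level of *Tgm5*. The 4 outer neighbours lay within a log2 ratio of -1.20 to 0.66. Single cells held 35.6% of the *Tgm7* and 31.5% of the *Epb42* counts in CatVII. Thinned to 50000 counts, *Tgm7* was in 1.91% (0.524% to 4.83%) of CatVII cells and *Epb42* in 0.478% (0.0121% to 2.64%). Neither had a count in the upper-middle ORS at that depth, which allows a share of up to 2.10%. The shares at that depth thus do not tell the stages apart.

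**Figure D5:**
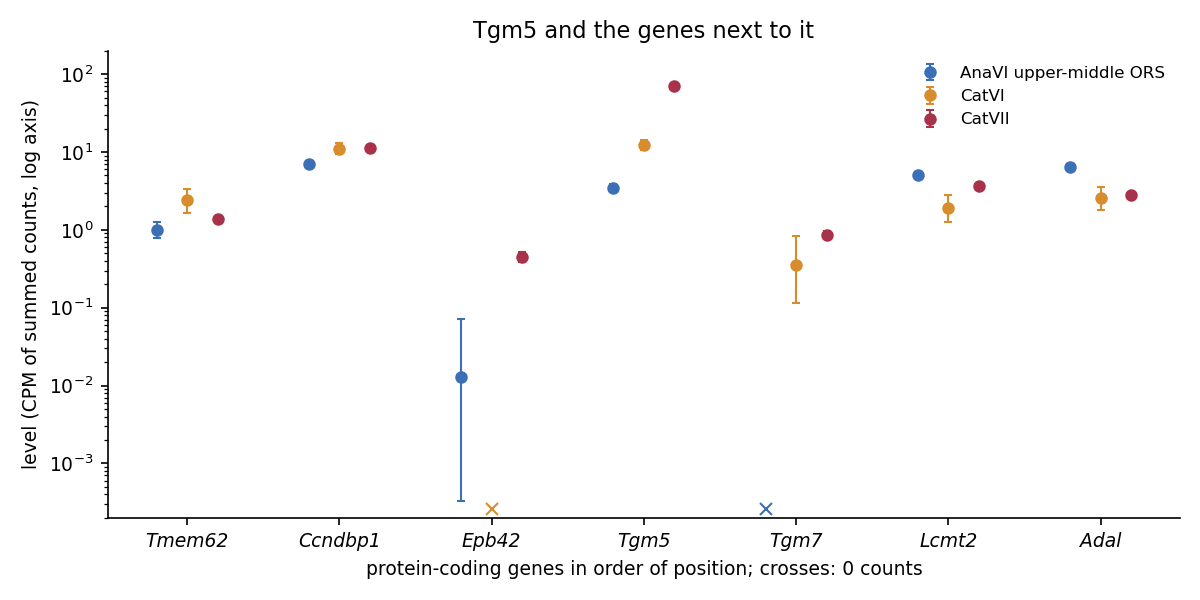
Level of *Tgm5* and of the 3 protein-coding genes on either side, in order of position, in CPM of summed counts on a log axis, with 95% Poisson intervals. Blue is the AnaVI upper-middle ORS, orange CatVI and red CatVII, and crosses mark 0 counts. *Tgm5* goes from 3.43 CPM to 70.8 CPM, and *Ccndbp1* from 7.06 to 11.1 CPM.

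Genes that work with transglutaminases were read from 3 lists, by counts and medians beside all genes tested. Of 26 cornified envelope proteins found, the substrates of the epidermal enzymes, 12 had 100 or more counts over CatVII and the AnaVI upper-middle ORS, of which 2 were 2-fold or more higher and 6 lower, with a median log2 ratio of -0.92. Of all genes tested, 11.5% were higher and 24.1% lower by this rule, with a median of -0.27. Of 21 envelope lipid and processing genes, 19 had enough counts, 1 was higher and 11 lower, with a median of -1.41. Of 20 TGM2 partners and retinoid genes, all had enough counts, 2 were higher and 3 lower, near or under the shares of all genes, with a median of 0.12. In this comparison the lists around the epidermal enzymes lay lower in CatVII, unlike *Tgm5*. In CatVI their medians were -1.20 and -0.69 against -0.17 for all genes.

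The most abundant genes of the lists were not alike. *Dsp*, desmoplakin, was at 471 CPM in MOS, 547 CPM in UOS and 624 CPM in OSalive, and highest in plate 5 at 1448 CPM. *S100a11*, a calcium-binding envelope protein, was at 26.1 CPM in UOS and 53.2 CPM in OSalive. *Ppl*, periplakin, was at 73.4 and 48.6 CPM and *Anxa1*, annexin A1, at 51.2 and 28.3 CPM in those sorts. OSapop had 57.7 CPM of *Ppl* and 48.9 CPM of *Anxa1*. *Ivl*, involucrin, was at 51.7 CPM in LOS, 22.96 CPM in plate 2 and below 1 CPM in the other groups. Structural substrates of broad use were therefore present in CatVII, whereas *Ivl* and *Tchh*, more particular to terminal differentiation, were at 2.29 CPM or below there.

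Among the processing genes, *Ctsl*, cathepsin L, was at 48.1 to 80.3 CPM over the AnaVI sorts and at 8.60 and 5.37 CPM in OSalive and OSapop. *Dsg1a*, desmoglein 1, was at 78.4 CPM in UOS and 22.8 CPM in OSalive, and *Sbsn*, suprabasin, at 58.5 and 18.1 CPM. *Ctsd*, cathepsin D, was highest in plate 5 at 411 CPM. *Capn1*, the calcium protease calpain 1, was at 36.3 CPM in UOS and 59.6 CPM in OSalive, and *Furin* at 53.6 and 38.4 CPM. Apart from *Capn1*, these were lower in OSalive than in UOS. The median of all genes was also below 0, at a log2 ratio of -0.27, in CatVII against the AnaVI upper-middle ORS.

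Among the TGM2 partners, *Adgrg1*, an adhesion receptor that binds TGM2, was at 221.1 CPM in MOS, 113.6 CPM in LOS and 69.3 CPM in UOS. The CatVII sorts differed, with 25.4 CPM of *Adgrg1* in OSalive and 60.6 CPM in OSapop, the latter near UOS. The highest group of *Adgrg1* was that of *Tgm2*. *Thbs1*, thrombospondin 1, was at 634 CPM in UOS and 603 CPM in OSalive, *Sdc4*, syndecan 4, at 136.96 and 156.5 CPM, and *Lrp1*, an endocytic receptor, at 111.6 and 107.02 CPM. *Fn1*, fibronectin, was at 217.2 CPM in LOS and 5.03 CPM in MOS, and *Col4a1* at 112.3 CPM in UOS and 34.99 CPM in OSalive. Of these 6, *Adgrg1* and *Col4a1* were 2-fold or more lower in OSalive than in UOS. No share of all genes was taken for that pair of sorts, so nothing is read from this. In CatVII against the AnaVI upper-middle ORS, 24.1% of all genes were 2-fold or more lower.

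The genes whose levels ran most like each member over the 9 groups were named by Pearson correlation of log2(CPM + 1), as a description over 9 points that differ in stage, depth and library. For *Tgm5* these were *Serpinb8* (r = 0.92), *Mfap3l* (0.90), *Fzd7* (0.87), *Itpr3* (0.86) and *Stim1* (0.86), out of 1571 genes. *Serpinb8*, a protease inhibitor, went from 15.35 CPM in UOS to 50.2 CPM in OSalive. *Fzd7*, a Wnt receptor, went from 67.6 to 118.7 CPM. *Itpr3* and *Stim1*, which act in the release and refilling of stored calcium, went from 104.1 to 177.7 and from 55.8 to 94.6 CPM. Unlike *Tgm5*, *Itpr3* was higher in plates 1 and 5 than in OSalive, at 204.6 and 193.1 CPM. For *Tgm2* they were *D16Ertd472e* (0.96), *Slc7a8* (0.94), an amino acid transporter, and *Rplp0* (0.93). For *Tgm3* they were *Cct8* (0.95), *Hnrnpk* (0.94) and *H2az1* (0.90), and for *Tgm1* *Tcp1* (0.87), *Tnpo1* (0.86) and *Krt75* (0.85), a companion layer keratin. With ranks in place of levels, or with counts scaled to annotated genes, 3 of the 5 genes named for *Tgm5* stayed among the first 5. *Mfap3l* came to places 8 and 6, and *Stim1* to 30 and 22. The genes of the other members held less well, with ranks by Spearman of 42 or beyond for the 3 of *Tgm2*, of 180, 32 and 364 for *Tgm3* and of 48, 2 and 6 for *Tgm1*.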

How the data were processed

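Gene counts of mouse hair follicle cells profiled by Smart-seq2 were analysed. Per the study's methods and the submitters' processing notes, the authors used STAR 2.6 for alignment to mm39 and Salmon 1.4.0 for quantification, and deposited estimated counts (expected counts) per gene summed in R 3.6.1, without normalization. Of the values, 0.471% are not whole, and counts were rounded. A spike-in set of 92 RNAs was kept out of totals, 93.3% of gene identifiers matched GENCODE on GRCm39, and 0 columns of other samples were set aside.

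Groups came from the sample labels. A cell titled OSapop but labelled CatVI belongs to no group, and 1 sample has no counts column. Cells with 2000 or more detected genes were summed per sort or plate and scaled to CPM. A gene with 0 counts was set to 3 for a ratio, and genes with 100 or more counts over both groups were compared. Called means 2-fold or more. Each group is 1 sample, so no test was run.

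The members and lists were chosen with earlier results of these data known. Genes named were the members, the other family genes, the 3 protein-coding neighbours on each side of *Tgm5*, the 6 most abundant genes of each list, markers and, for *Tgm5*, 5 and, for each other member, 3 genes by likeness, among genes found in 75 or more cells and at 50 CPM or more in a group. Markers named singly, such as *Krt71*, *Krt79* and *Krt85*, were chosen after their values were seen.

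Alternatives changed the scaling, including TMM of edgeR 4.0.16 in R 4.3.3, the weight of cells, the gene minimum (1000 or 3000), the depth (thinning to 50000 or 20000), rounding, cells with shared well labels (160 labels occur in 2 cells of a sort), the most counted cell and each sort or plate. The ratio calculation was run on simulated Poisson counts of group sums. These hold no spread among cells, so the run says nothing of that spread. The remaining work was done in Python 3.11.15 with scipy 1.17.1, pandas 2.3.3, matplotlib 3.10.9 and numpy 2.4.6.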

Additional observations from a re-analysis of the deposited data

Results flagged for a closer look

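Counts of the members also appeared in cells with fewer than 2000 detected genes, which no comparison used. *Tgm2* had 8 counts in 54 such LOS cells (41.05 CPM, 17.7 to 80.9) and 4 in 34 MOS cells (16.02 CPM, 4.37 to 41.03). *Tgm5* had 17 counts in 31 OSalive cells (78.7 CPM) and 21 in 49 OSapop cells (43.95 to 108.5 CPM). In CatVI plate 5, 1 such cell held 63 counts of *Tgm2*, where the 15 passing cells held 0.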

How the results depend on the processing

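The number of members past 2-fold stayed within 1.5 times under every alternative in the comparisons of CatVII and CatVI with the AnaVI upper-middle ORS and of LOS with it, although for LOS the members past 2-fold after thinning were *Tgm1* (2.83) and *Tgm3* (4.58) in place of *Tgm3* and *Tgm5*. It changed in 3 others. For UOS against MOS it went from 4 to 2 with cells thinned to 50000 counts. There *Tgm1* had too few counts for a ratio and *Tgm2* came to -0.98. As a mean over cells the number was also 2. For OSapop against OSalive it went from 1 to 0 after thinning, where *Tgm1* again had no ratio. For CatVI Phago apop against Phago alive it went from 0 to 1 after thinning and as a mean over cells, and was 0 to 1 when a plate was left out, with 1 without plate 1. The causes were not tested. With a sort or plate left out, the log2 ratio of *Tgm1* ran from -5.96 to 1.30 in CatVII and from -4.91 to 1.28 in CatVI, reversed only without UOS. Over all the alternatives, not only those with a sort or plate left out, *Tgm5* kept its sign in CatVII (3.78 to 5.92) and CatVI (0.999 to 3.40). So did *Tgm2* (-10.00 to -5.79 and -5.97 to -3.20) and *Tgm3* (-8.66 to -2.66 and -5.18 to -0.68). With no minimum of counts, 13.2% of genes were 2-fold or more higher in CatVII and 33.9% were 2-fold or more lower. After thinning, *Tgm3* had 0 counts in CatVI and CatVII and was set to the floor of 3. Its ratios there, inside 2-fold for CatVI, are bounds. Several values rest on few counts: 2 of *Tgm3* and 4 of *Tgm1* in CatVI, and 1 each of *Tgm5* in LOS, *Tgm1* in MOS and *Tgm2* in OSapop. No paired analysis was possible because each group is 1 sample and no test was run.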
